A study of Mus musculus with 8 samples.

Results

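The 10 genes described here encode the subunits of the transcription factor NF-κB (Rela, Nfkb1, Rel, Nfkb2 and Relb), the inhibitors that hold it in the cytoplasm (Nfkbia and Nfkbie), 2 nuclear proteins of the inhibitor family (Nfkbiz and Bcl3) and the feedback enzyme Tnfaip3. They were picked by gene symbol as the core of the system, and all 10 were found among the 54752 genes of the count tables. RNA-seq was made from the right cerebral cortex of adult male wild-type C57BL/6 mice (C57BL/6J in the study's methods), 4 after sham surgery (Sham) and 4 after bilateral carotid artery stenosis (BCAS), collected 3 weeks after surgery, with 1 mouse per library. In BCAS a small metal coil is put around each common carotid artery to lower the blood flow to the brain, and the coil on the right, the side that was sequenced, was the narrower of the pair. Sham mice went through the surgery without coils. The comparison of BCAS with Sham asks how the transcriptome of the cortex differs after prolonged hypoperfusion. The samples are pieces of whole tissue, so more cells of a type and more RNA per cell cannot be told apart, nor fewer cells and less RNA.

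NF-κB is a dimer of Rel-family subunits. In resting cells the common dimers of RelA and p50, the product of Nfkb1, are bound by IκB proteins such as those made from Nfkbia and Nfkbie. Cytokine and Toll-like receptors switch on the IκB kinase (IKK), IκB is phosphorylated and degraded, and the dimer enters the nucleus. In the non-canonical route the kinase NIK, the product of Map3k14, leads to processing of the Nfkb2 precursor to p52, which works with RelB. Many genes of the system are themselves textbook targets of NF-κB, among them Nfkbia and Tnfaip3, which close negative feedback loops. In the brain the pathway is best known from microglia, astrocytes and endothelial cells during inflammation.

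The promoter sequences are shown because these genes are known to be read by the factor that they encode. RefSeq promoter windows on GRCm38.p6, which run from 250 bases before to 50 bases after an annotated transcript start, were available for 7 of the 10 genes, with 10 windows in all. Nfkb1, Relb and Nfkbiz were not searched here. Each window was searched on both strands for the 10-base κB consensus. The stretches around the matches read 5′ to 3′ on the strand of the gene, with the bases that match, or that belong to overlapping matches, in capitals.

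Nfkb2, chr19:46304692-46304715, plus strand: cgtcacGGGAATTCCCCccctcgg
Nfkb2, chr19:46304719-46304742, plus strand: gccgaaaGGGGCTTTCCcggctgg
Nfkbia, chr12:55492648-55492707, minus strand: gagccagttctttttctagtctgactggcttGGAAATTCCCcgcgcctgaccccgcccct
Tnfaip3, chr10:19015411-19015470, minus strand: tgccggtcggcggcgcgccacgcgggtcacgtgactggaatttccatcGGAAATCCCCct
Rel, chr11:23771030-23771089, minus strand: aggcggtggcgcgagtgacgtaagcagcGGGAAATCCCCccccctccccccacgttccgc
Nfkbie, chr17:45555580-45555639, plus strand: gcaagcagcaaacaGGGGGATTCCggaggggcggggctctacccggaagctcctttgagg
Bcl3, chr7:19822735-19822764, minus strand: gtcggcggcagGGGAAGTCCCgctgcccgg

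At least 1 match lay in 8 of the 10 windows and in 6 of the 7 genes, Rela being the gene without one. The windows are not all separate. Of those of Nfkb2, the windows from 46305445 and from 46305680 overlap, and the match at 11 in the former is the site at -225 in the latter. Of all 32851 promoter windows, 8.46% held a match, as did 9.55% of their 27025 genes. Among the 12270 tested genes with a window the share was 12.49%, and among the 1402 of them that were higher in BCAS past both thresholds (defined below) it was 14.84%. Counted from the transcript start, the matches of Tnfaip3 began at -12 and, outside the stretch shown, at -125. That of Nfkbia began at -29, those of Rel at -92 and -91, and that of Nfkbie at -106. The match of Bcl3 began at 3, past the transcript start and within exon bases. In the window of Nfkb2 shown above the first matches began at -39 and -38 and overlapped, and another began at -11. A match is only a run of letters, and no binding was measured in these libraries.

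The libraries held 16759364 to 21794435 counts, and the smallest library could miss a gene of up to 0.179 CPM (counts scaled to equal depth, 3 counts being taken as the limit that a count of 0 allows). All 8 cerebral cortex markers were measured in the libraries, with summed levels of 583.6 to 719.4 CPM in Sham and 236.5 to 530.4 CPM in BCAS, and 4 of the 8 passed as lower in BCAS. Sham mouse 3 stood apart: it held 12169 counts of Ttr and 844 of Kl, markers of the choroid plexus beside the cortex, where the other 7 libraries held 128 to 814 and 71 to 280, and the markers of choroid plexus and striatum summed to 136.8 to 911.8 CPM in Sham and 206.2 to 437.5 CPM in BCAS (1 of 8 tested passed, as higher). Without Sham mouse 3, 9 of the 10 genes described below still passed, all but Nfkbie (edgeR adjusted p = 0.0509), and the part of the neighboring tissue in the results was not tested. The CPM were scaled by TMM, and the groups were compared with edgeR's quasi-likelihood test over 17136 genes, so every adjusted p below is from that test unless another is named. A gene is said to have risen or fallen when its Benjamini-Hochberg adjusted p was under 0.05, and to be past both thresholds when its log2 fold change also exceeded 1 in size.

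All 10 genes rose in BCAS. The increases ran from 1.96-fold for Rela to 14.1-fold for Bcl3, the median of the 10 log2 fold changes was 1.58, and 9 of the 10 were past both thresholds, Rela being the exception. Over all tested genes 3291 of 17136 (19.2%) rose and 2199 (12.8%) fell, with a median log2 fold change of -0.01, and 1877 (11.0%) were higher past both thresholds. These background counts depend on single mice: the higher calls numbered 2131 without Sham mouse 1 and 2184 without Sham mouse 4, and the lower calls moved by over 1.5 times without any 1 of the Sham mice (418 to 1448) or without BCAS mouse 2 (3675), 3 (729) or 4 (702). For 8 of the 10 genes the levels of the 4 BCAS mice lay above those of the 4 Sham mice, which was so for 3163 of all tested genes (18.5%). The exceptions were Nfkbia and Nfkbie, and in both the overlap came from BCAS mouse 2. Bcl3 passed the filter on low counts through the BCAS mice, since 2 Sham libraries held under 10 counts of it, whereas the other members had at least 39 counts in every library. The plot of CPM by library shows all values.

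**Figure D1:**
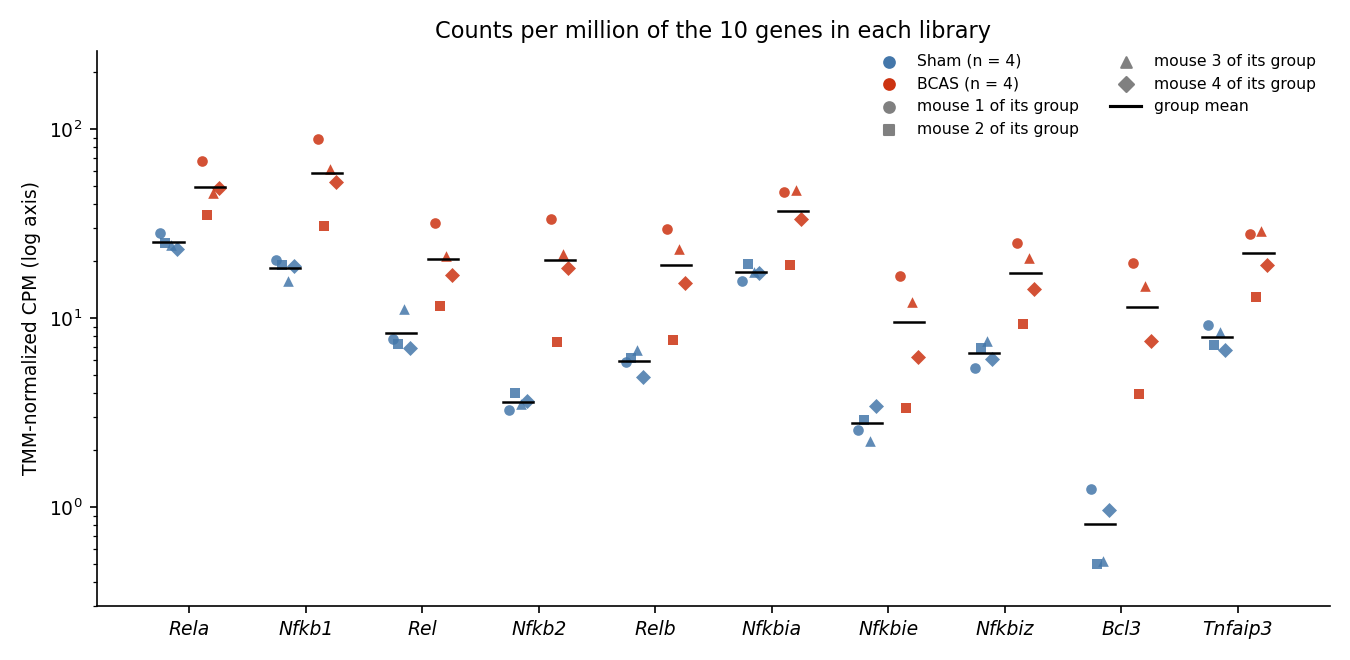
TMM-normalized CPM on a log axis of the 10 genes in each of the 4 Sham (blue) and 4 BCAS (red) libraries, with the marker shape giving the mouse number within its group and a line at the group mean. BCAS mouse 2 is the lowest BCAS library for every gene, and only Nfkbia and Nfkbie overlap between the groups.

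Rela encodes RelA (p65), the main transactivating subunit of the canonical dimers, and lies at chr19:5637483-5648130 on the plus strand (gene coordinates are those of mm10). Its levels were 28.2, 25.0, 24.3 and 23.2 CPM in Sham mice 1 to 4, and 67.9, 35.2, 46.1 and 48.7 CPM in BCAS mice 1 to 4. Every BCAS mouse was above every Sham mouse, yet the step was the smallest of the 10. The mean went from 25.2 ± 2.16 to 49.5 ± 13.6 CPM (SD, n = 4 each), a log2 fold change of 0.97 (SE 0.18, adjusted p = 0.00681). The fold change stayed close to the threshold of 1 and lay above it in 4 of 17 alternative analyses.

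Nfkb1, at chr3:135584655-135691547 on the minus strand, encodes the p105 precursor of p50. Sham mice 1 to 4 had 20.3, 19.0, 15.7 and 18.8 CPM and BCAS mice 1 to 4 had 88.5, 30.8, 61.5 and 52.2 CPM. The groups were apart, with the lowest BCAS mouse well above the highest Sham mouse. The means were 18.5 ± 1.98 and 58.2 ± 23.9 CPM (SD, n = 4 each), a log2 fold change of 1.66 (SE 0.28, adjusted p = 0.00465).

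Rel encodes c-Rel, a subunit best known from lymphocytes and myeloid cells, at chr11:23736847-23770970 on the minus strand. Its level was 7.79, 7.30, 11.1 and 6.94 CPM in Sham mice 1 to 4, and 31.96, 11.5, 21.4 and 16.9 CPM in BCAS mice 1 to 4. The groups nearly touched, since Sham mouse 3 stood above its group at 11.1 CPM and BCAS mouse 2 was at 11.5 CPM. Without Sham mouse 3, the library with the choroid plexus transcripts, the log2 fold change of Rel was 1.47 (edgeR adjusted p = 0.0225). From 8.28 ± 1.91 to 20.4 ± 8.67 CPM (SD, n = 4 each) the log2 fold change was 1.30 (SE 0.30, adjusted p = 0.0145).

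Among the subunits of the non-canonical route, Nfkb2 had the larger change. It encodes the p100 precursor of p52 and lies at chr19:46304737-46312090 on the plus strand. Sham mice 1 to 4 had 3.24, 3.99, 3.49 and 3.62 CPM, a narrow range, and BCAS mice 1 to 4 had 33.5, 7.47, 21.8 and 18.5 CPM. Even the lowest BCAS mouse was clear of the Sham range. Its mean rose from 3.59 ± 0.315 to 20.3 ± 10.7 CPM (SD, n = 4 each), a log2 fold change of 2.5 (SE 0.39, adjusted p = 0.00376), the second largest of the 10. Psd, on the opposite strand, shares 0.12% of the exon bases of Nfkb2, and the counting used no strand option.

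Relb encodes RelB, the partner of p52, and lies at chr7:19606217-19629438 on the minus strand. The Sham mice 1 to 4 were at 5.85, 6.12, 6.75 and 4.89 CPM and the BCAS mice 1 to 4 at 29.8, 7.62, 23.3 and 15.3 CPM. BCAS mouse 2 was only just above the Sham range, while the other BCAS mice were well above it. The means of 5.90 ± 0.773 and 19.0 ± 9.63 CPM (SD, n = 4 each) gave a log2 fold change of 1.69 (SE 0.37, adjusted p = 0.0117).

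The cytoplasmic inhibitors were the members whose groups overlapped. Nfkbia encodes IκBα, the fast feedback inhibitor of RelA dimers, and lies at chr12:55489410-55492647 on the minus strand, with the promoter match shown above. It was at 15.6, 19.4, 17.5 and 17.4 CPM in Sham mice 1 to 4 and at 46.2, 19.1, 47.9 and 33.6 CPM in BCAS mice 1 to 4. BCAS mouse 2 was below Sham mouse 2, and the other BCAS mice were above the Sham range. The mean moved from 17.5 ± 1.54 to 36.7 ± 13.4 CPM (SD, n = 4 each), a log2 fold change of 1.07 (SE 0.26, adjusted p = 0.0167). Without BCAS mouse 2 the log2 fold change was 1.30 (edgeR adjusted p = 0.000143), and without Sham mouse 1 the gene did not pass (log2 fold change 1.01, edgeR adjusted p = 0.0548).

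Nfkbie encodes IκBε, an inhibitor of RelA and c-Rel dimers, and lies at chr17:45555703-45563169 on the plus strand. Sham mice 1 to 4 had 2.56, 2.87, 2.23 and 3.44 CPM, from 39 to 57 counts, and BCAS mice 1 to 4 had 16.7, 3.35, 12.1 and 6.21 CPM. BCAS mouse 2 fell just under Sham mouse 4, and the BCAS mice spread widely for their mean, with a coefficient of variation of 62.2%, close to the 61.5% of Bcl3. With means of 2.77 ± 0.515 and 9.58 ± 5.96 CPM (SD, n = 4 each) the log2 fold change was 1.79 (SE 0.45, adjusted p = 0.0199). This was the weakest call of the 10. It was lost without Sham mouse 1, 2 or 3 or BCAS mouse 3 (edgeR adjusted p = 0.0606, 0.0557, 0.0509 and 0.0534) and with limma-voom (adjusted p = 0.0646), and without BCAS mouse 2 it was a log2 fold change of 2.09 (edgeR adjusted p = 0.000982).

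Nfkbiz encodes IκBζ, a nuclear protein needed for a subset of secondary response genes, at chr16:55811375-55838899 on the minus strand. Its levels were 5.46, 6.93, 7.55 and 6.09 CPM in Sham mice 1 to 4, and 25.0, 9.32, 20.9 and 14.2 CPM in BCAS mice 1 to 4. The ranges did not meet. The log2 fold change was 1.42 (SE 0.29, adjusted p = 0.00924), from 6.51 ± 0.920 to 17.4 ± 6.95 CPM (SD, n = 4 each).

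Bcl3, a nuclear partner of p50 and p52 homodimers, had the largest fold change and the lowest level in Sham. The gene lies at chr7:19808462-19822770 on the minus strand, 179.0 kb from Relb on the same chromosome. The Sham libraries 1 to 4 held 22, 8, 9 and 16 counts (1.25, 0.499, 0.515 and 0.965 CPM), and the BCAS libraries 1 to 4 held 446, 77, 273 and 138 counts (19.6, 3.97, 14.7 and 7.52 CPM). Even in BCAS mouse 2 the level was more than that of every Sham mouse. The means were 0.807 ± 0.366 and 11.5 ± 7.04 CPM (SD, n = 4 each), a log2 fold change of 3.81 (SE 0.55, adjusted p = 0.0030). With so few counts in Sham this size depends on the scale of the fit, and limma on log2(CPM + 1) gave 2.60 for Bcl3. Gm16175, on the opposite strand, covers 6.51% of the exon bases of Bcl3, and reads of the pair there cannot be told apart.

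Tnfaip3 encodes A20, a ubiquitin-editing enzyme that shuts down signaling from tumor necrosis factor and Toll-like receptors, and lies at chr10:19000910-19015657 on the minus strand. Sham mice 1 to 4 had 9.21, 7.18, 8.41 and 6.76 CPM and BCAS mice 1 to 4 had 28.0, 12.9, 28.7 and 19.2 CPM. The groups did not overlap, and BCAS mice 1 and 3 were nearly level. A change from 7.89 ± 1.12 to 22.2 ± 7.56 CPM (SD, n = 4 each) gave a log2 fold change of 1.49 (SE 0.25, adjusted p = 0.00482). Apart from Bcl3 and Nfkb2, the members share 0% of their exon bases with another annotated gene.

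**Figure D2:**
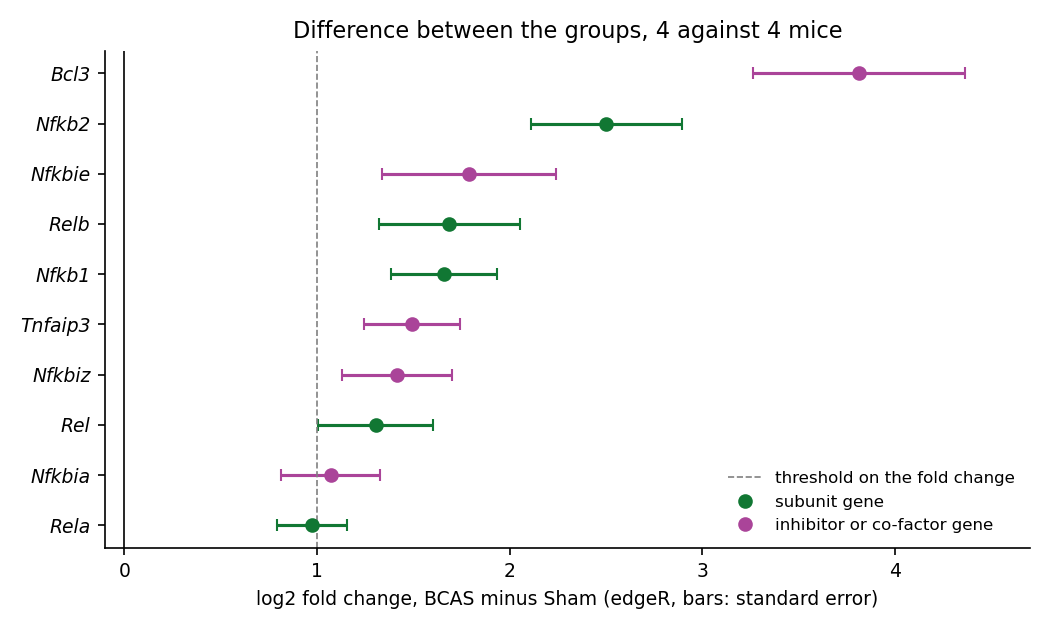
Log2 fold change of BCAS over Sham for each gene from edgeR (points, with bars of 1 standard error, 4 mice per group), subunit genes in green and inhibitor or co-factor genes in purple. The genes run from 0.97 for Rela to 3.81 for Bcl3, and the dashed line marks the threshold of 1.

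The BCAS mice differed among themselves more than the Sham mice did. The coefficient of variation of the CPM ran from 27.4% for Rela to 62.2% for Nfkbie in BCAS, and from 8.56% for Rela to 45.3% for Bcl3 in Sham. BCAS mouse 1 was highest for 8 of the 10 genes and BCAS mouse 2 lowest for 10 of 10, and the order mouse 1, 3, 4, 2 was seen for 7 of the 10 (70%). Among the 1877 genes that were higher past both thresholds BCAS mouse 1 was highest in 89.8%, BCAS mouse 2 lowest in 93.8% and that order held in 69.3%. Relative to the Sham means, the median log2 value of the 10 genes was 2.10, 0.50, 1.80 and 1.22 for BCAS mice 1 to 4. Leaving out BCAS mouse 2 brought all 10 genes past both thresholds.

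Levels of different genes were compared per length of exon, as RPKM. The length counts all annotated exon bases of a gene: 12061 for Nfkb1, 2716 for Rela and 1610 for Nfkbia. The order between genes therefore depends on it. In CPM Nfkb1 had means of 18.5 in Sham and 58.2 in BCAS, beside 25.2 and 49.5 for Rela and 17.5 and 36.7 for Nfkbia. By RPKM in Sham, Nfkbia (10.9 ± 0.959) and Rela (9.28 ± 0.794 RPKM, SD, n = 4 each) stood far above the rest and overlapped each other. The other genes except Bcl3 followed within a narrow band from Nfkb1 (1.53 ± 0.164) down to Nfkbie (0.911 ± 0.169 RPKM), and each overlapped its neighbor in the order. Bcl3 was last at 0.326 ± 0.148 RPKM and did not overlap Nfkbie. In BCAS, Nfkbia (22.8 ± 8.29) and Rela (18.2 ± 5.0 RPKM) again led and did not overlap the third gene, which was now Nfkb2 (6.17 ± 3.26 RPKM). Bcl3 stood sixth at 4.63 ± 2.85 RPKM, and from Nfkb2 down to Rel (2.74 ± 1.16 RPKM) every neighbor in the order overlapped the next.

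The subunit mRNAs were then taken as shares of their summed RPKM, which was 14.5 ± 0.905 in Sham and 36.9 ± 13.7 in BCAS (SD, n = 4 each). Rela made up 66.6%, 63.3%, 61.6% and 63.8% of the sum in the Sham libraries 1 to 4, against 45.9%, 60.9%, 45.2% and 52.6% in the BCAS libraries 1 to 4. The share of Rela was thus lower in every BCAS mouse, with BCAS mouse 2 just under the Sham range. Nfkb2 went the other way, from 7.54% ± 0.942 to 15.9% ± 3.59, without overlap. Nfkb2 and Relb together were 15.9% to 19.2% of the sum in Sham and 19.9% to 33.6% in BCAS. The share of Rel was 7.64% ± 1.73 in Sham and 7.34% ± 0.533 in BCAS, with overlapping ranges. These shares follow from the levels above and are given without a test, and mRNA shares say nothing of the dimers that were formed. Their sizes also rest on the exon lengths, of which that of Nfkb1 is long.

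**Figure D3:**
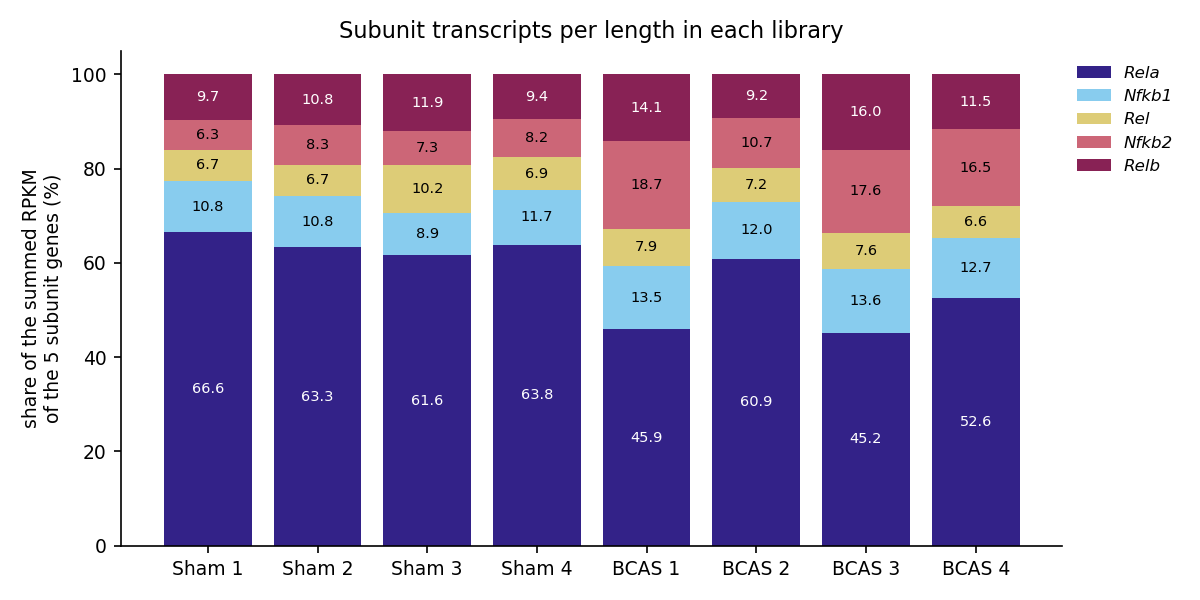
Share of each subunit gene in the summed RPKM of the 5 subunit genes, in percent, as 1 stacked bar per library. The Rela segment is 61.6% or more in the 4 Sham libraries and 60.9% or less in the 4 BCAS libraries, and the Nfkb2 segment is larger in every BCAS library than in any Sham library.

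Log2 ratios between 7 pairs of members within a library, which do not depend on the scaling of the library, were tested by an exact two-sided permutation over the 70 arrangements of the 8 libraries, with a smallest possible p of 0.0286. Nfkb2 relative to Nfkb1 was -2.64, -2.24, -2.16 and -2.37 across the Sham libraries (mice 1 to 4) and -1.40, -2.04, -1.50 and -1.50 across the BCAS libraries. The ranges did not overlap, and the difference of 0.74 reached the smallest p (exact permutation p = 0.0286), with an adjusted p of 0.10 over the 7 ratios. Bcl3 relative to Nfkb1 was higher by 2.07 in BCAS, again without overlap (exact permutation p = 0.0286, adjusted p = 0.10). With 7 ratios, an adjusted p under 0.05 was out of reach unless at least 5 of them had the smallest p.

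For the other 5 ratios the groups overlapped. Relb relative to Rela differed by 0.58 (exact permutation p = 0.114, adjusted p = 0.267), Nfkbie relative to Rela by 0.61 (exact permutation p = 0.2, adjusted p = 0.28) and Rel relative to Rela by 0.29 (exact permutation p = 0.171, adjusted p = 0.28). The ratio of Nfkbie to Rela spread from -3.385 in BCAS mouse 2 to -1.928 in BCAS mouse 3, so the size of its difference depends on single mice. Nfkbiz relative to Nfkb1 differed by -0.24 (exact permutation p = 0.286, adjusted p = 0.333). That size depends on Sham mouse 3, at -1.05 beside -1.89 to -1.45 in the other Sham mice. Nfkbia relative to Rela, the inhibitor against the subunit it binds, was -0.53 ± 0.221 in Sham and -0.48 ± 0.389 in BCAS (SD, n = 4 each), a difference of 0.05 (exact permutation p = 0.943). Its sign turned to -0.06 without Sham mouse 1 and -0.13 without BCAS mouse 3, so no direction can be given.

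**Figure D4:**
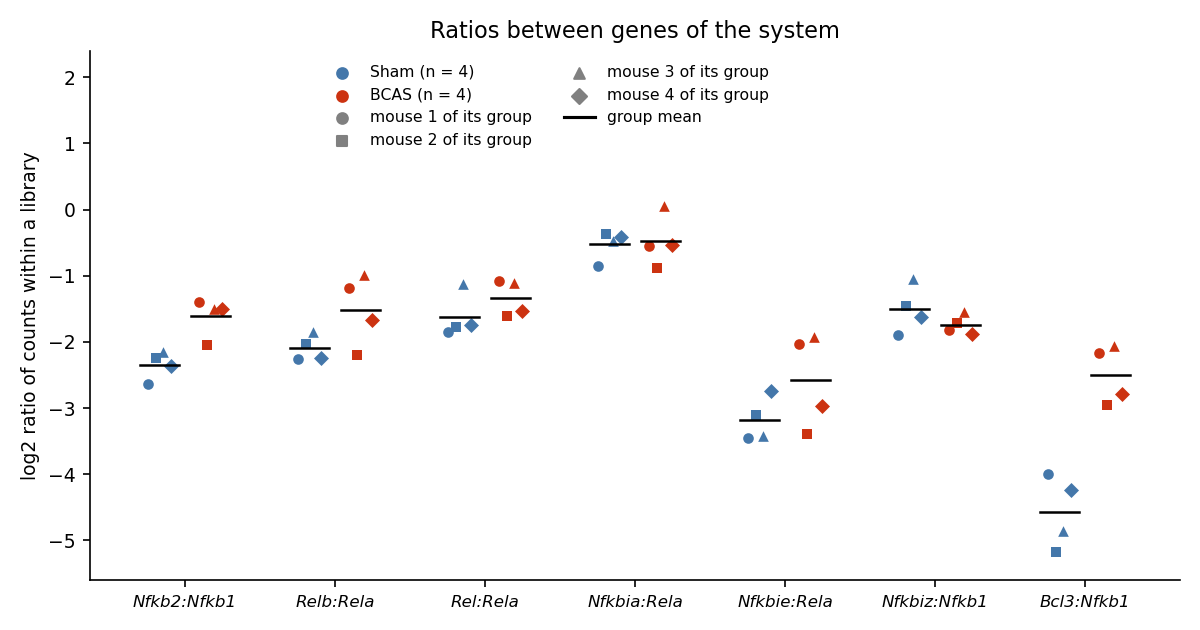
Log2 ratio of the counts of 2 members within each library for 7 pairs, in 4 Sham (blue) and 4 BCAS (red) mice, with the marker shape giving the mouse number and a line at the group mean. The groups are apart for Nfkb2:Nfkb1 and Bcl3:Nfkb1 and overlap for the other 5 pairs.

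The rest of the pathway was read from 7 lists of 99 genes, of which 84 could be tested. Of these 54 rose, 2 fell and 28 did not pass, beside 19.2% and 12.8% of all tested genes. Since 16 of the 54 held under 10 counts in at least 1 Sham library and passed the filter only with the help of BCAS libraries, the pooled count is a description. Of the other IκB genes, Nfkbib, Nfkbid and Nfkbil1, 0 of 3 passed with edgeR (1, Nfkbid, was higher at an unadjusted p under 0.05 and passed with DESeq2, and 0 passed with limma-voom), and their median log2 fold change was -0.04. Nfkbil1, the gene with the largest adjusted p of that list, was at 8.05 ± 1.41 CPM in Sham and 7.81 ± 1.49 CPM in BCAS (SD, n = 4 each, adjusted p = 0.879).

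The IKK subunits, upstream kinases and their TAB partners, which carry the signal to IκB, rose in 9 of 15 cases, 0 fell with edgeR, DESeq2 or limma-voom (also 0 at an unadjusted p under 0.05), and the median log2 fold change was 0.44. The largest changes were those of Ikbke, an IKK-related kinase of innate immunity (log2 fold change 2.73, SE 0.46, adjusted p = 0.00476), and Irak4, a kinase downstream of MyD88 at Toll-like and interleukin-1 family receptors (2.27, SE 0.43, adjusted p = 0.00703). Ikbke held 26, 19, 27 and 32 counts in the Sham libraries 1 to 4 and 381, 68, 243 and 138 counts in the BCAS libraries 1 to 4, without overlap. Map3k7 (TAK1), which activates IKK, had the largest adjusted p of the list, at 81.4 ± 4.26 CPM in Sham and 83.2 ± 3.95 CPM in BCAS (SD, n = 4 each, adjusted p = 0.750). Chosen after its values were seen, Map3k14, the kinase of the non-canonical route, rose by 1.49 (SE 0.28, adjusted p = 0.00754).

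Adaptors between receptors and kinases rose in 9 of 13 cases, with a median of 0.88. Traf1, a TRAF adaptor, had 11, 10, 18 and 21 counts in the Sham libraries 1 to 4 and 339, 41, 168 and 66 counts in the BCAS libraries 1 to 4, without overlap. It rose by 3.06 (SE 0.62, adjusted p = 0.00933), and Birc2 (cIAP1) did not pass (34.7 ± 2.52 CPM in Sham, 38.2 ± 2.19 CPM in BCAS, SD, n = 4 each, adjusted p = 0.216). Its relative Birc3 (cIAP2), chosen after its values were seen, rose by 2.44 (SE 0.48, adjusted p = 0.00853).

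Of 13 tested genes of ubiquitin editing and negative regulation 3 rose, 1 fell and 9 did not pass, with a median of 0.13, which is not far from the shares of all tested genes that rose (19.2%) and fell (12.8%). Zc3h12a, an RNase that degrades inflammatory mRNAs, rose by 2.57 (SE 0.52, adjusted p = 0.00911) and Tnip2, an A20-binding protein, by 0.72 (SE 0.13, adjusted p = 0.0063). Tnip1, another A20-binding protein, was at 27.0 ± 3.98 CPM in Sham and 27.7 ± 3.22 CPM in BCAS (SD, n = 4 each, adjusted p = 0.849). The gene that fell was Rnf11 (-0.48, SE 0.15, adjusted p = 0.0391), a ring finger protein of the A20 complex. It no longer passed without any 1 of the Sham mice or without BCAS mouse 3 or 4 (edgeR adjusted p from 0.0630 to 0.0973 for Rnf11).

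At the top of the pathway, 5 of 10 listed ligands could be tested and rose, with a median of 3.04, the others being too low to test. Of the 5, Ltb, Il1a and Il1b (3 genes) held under 10 counts in at least 1 Sham library and passed the filter only with the help of BCAS libraries, so this count gives no support. Il1a had 18, 7, 11 and 13 counts in Sham mice 1 to 4 and 317, 50, 142 and 86 counts in BCAS mice 1 to 4 (log2 fold change 3.31, SE 0.54, adjusted p = 0.00438), and Il1b rose by 3.25 (SE 0.66, adjusted p = 0.00924). Both encode cytokines that signal to IKK. With as few counts in Sham as those of Il1a, Il1b and Traf1, and of C3 and Lcn2 below, the fitted size depends on the prior count. On the log2(CPM + 1) scale limma gave 2.07 for Il1a, 1.57 for Il1b, 1.89 for Traf1 and 5.83 for C3. Receptors rose in 9 of 10 cases with a median of 1.79 (2 of the 10 also under 10 counts in a Sham library), led by the pattern receptor Tlr2 (5.48, SE 0.50, adjusted p = 0.00147), from 1.47 ± 0.417 to 65.6 ± 37.0 CPM (SD, n = 4 each), and by Tnfrsf1b (3.34, SE 0.52, adjusted p = 0.00362), a receptor of tumor necrosis factor. Tnfrsf11a (RANK), with the largest adjusted p among the receptors of at least 100 counts, rose by 1.13 (SE 0.28, adjusted p = 0.0195) and was lost without Sham mouse 2 or 4 or BCAS mouse 3. Ltbr, a receptor of the non-canonical route chosen after its values were seen, rose by 1.9 (SE 0.26, adjusted p = 0.00254).

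Established target genes of NF-κB rose in most cases. Of 25 tested genes of 34 listed, 19 rose, 1 fell and 5 did not pass, with a median of 3.16. Since 12 of the 25, 11 of which rose, held under 10 counts in at least 1 Sham library and passed the filter only with the help of BCAS libraries, this count and median are a description and give no support. C3, the central complement component, had 18, 15, 9 and 4 counts in Sham mice 1 to 4 and 8529, 197, 4942 and 1248 counts in BCAS mice 1 to 4 (log2 fold change 8.04, SE 1.21, adjusted p = 0.00331). Lcn2, an iron-binding acute phase protein, rose by 7.68 (SE 1.40, adjusted p = 0.00642), from 0.276 ± 0.275 to 58.7 ± 60.6 CPM (SD, n = 4 each). BCAS mouse 2 was far below the other BCAS mice for both, and with limma-voom neither passed (adjusted p = 0.0897 and 0.211). Bcl2l1, a survival gene, was at 99.2 ± 4.07 CPM in Sham and 93.7 ± 5.54 CPM in BCAS (SD, n = 4 each, adjusted p = 0.395), and Sod2, a mitochondrial antioxidant enzyme, fell (-0.38, SE 0.12, adjusted p = 0.0428), but did not pass without any 1 of the Sham mice or without BCAS mouse 3 or 4 (edgeR adjusted p from 0.0642 to 0.0994 for Sod2). The list holds 3 near-identical Bcl2a1 copies whose reads are hard to assign, and the plot of the pathway lists gives all genes.

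**Figure D5:**
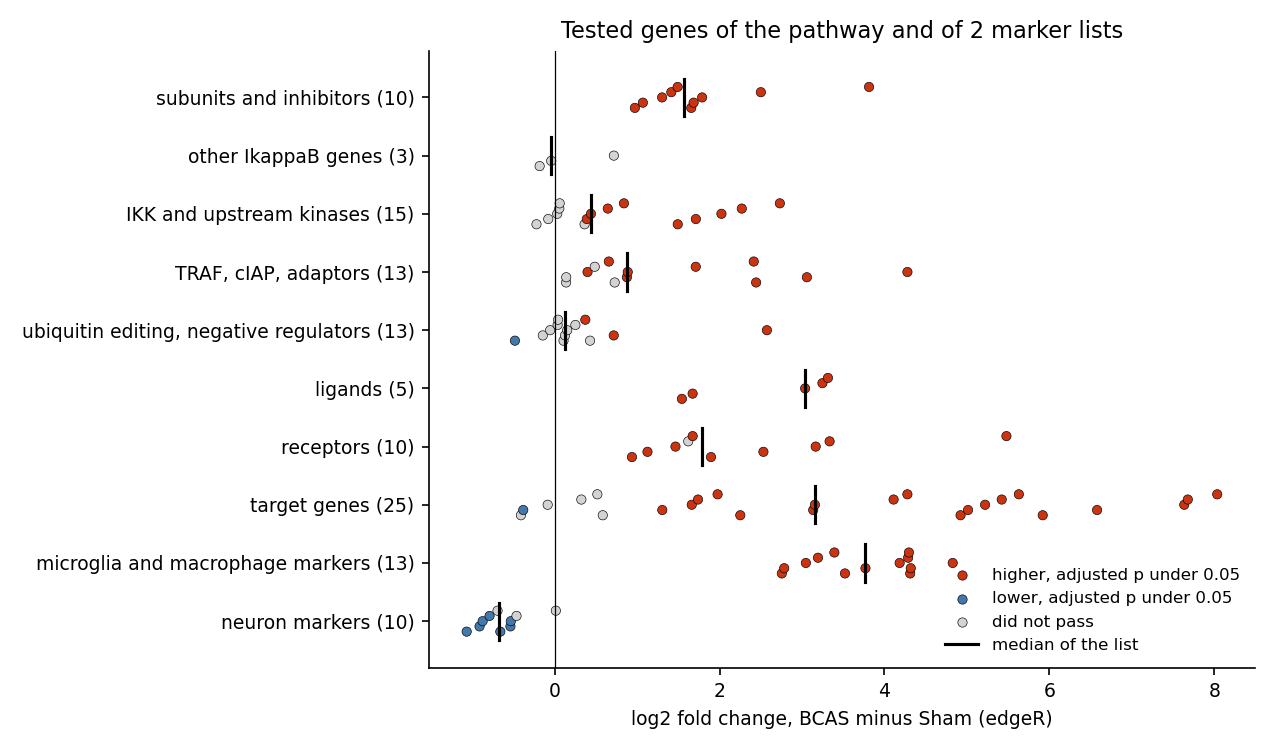
Log2 fold change of BCAS over Sham from edgeR for each tested gene of the 10 subunits and inhibitors, of 7 pathway lists and of 2 cell type marker lists, with the number tested in parentheses, filled red or blue where the gene passed and grey where it did not. Medians (lines) run from -0.04 for the other IκB genes to 3.16 for the target genes (12 of 25 of them low in Sham) among the pathway lists, beside 3.77 for the microglia and macrophage markers.

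Of the cell type markers, all 13 microglia and macrophage markers rose, with a median log2 fold change of 3.77, and their summed level was 328.7 to 395.1 CPM in Sham and 1806 to 7605 CPM in BCAS, the BCAS mice again in the order 1, 3, 4, 2. Lymphocyte markers summed to 3.83 to 7.18 CPM in Sham and 11.1 to 108.1 CPM in BCAS (of 16 listed 4 could be tested), and monocyte and neutrophil markers to 0.966 to 1.77 and 3.97 to 88.1 CPM (of 12 listed 2 could be tested). The tested genes of these lists rose, but 3 of the 4 and both of the 2 passed the filter only with the help of BCAS libraries, so that a rise was built in. Among the untested neutrophil genes Ly6g and Elane were at 0 in every library, whereas S100a9 had 6, 1, 4 and 0 counts in the Sham libraries 1 to 4 and 92, 7, 98 and 16 counts in the BCAS libraries 1 to 4, and Cxcr2 had 2, 0, 0 and 2 against 71, 0, 65 and 4 counts. Astrocyte markers rose in 5 of 7 cases (summed 5208 to 6059 CPM in Sham, 6878 to 9842 in BCAS). Much of the rise in this sum is Gfap, with means of 156 CPM in Sham and 2320 CPM in BCAS. Slc1a2 (3533 and 3581 CPM, adjusted p = 0.932) and Aldoc (809 and 881 CPM, adjusted p = 0.434) did not pass. Endothelial markers rose in 2 of 8 cases (301.1 to 389.9 and 358.9 to 520.4 CPM) and oligodendrocyte markers in 1 of 7 (3647 to 5837 and 5096 to 8002 CPM), shares near the 19.2% of all tested genes. Neuron markers fell in 7 of 10 cases, from 10270 to 11810 CPM in Sham to 4175 to 8811 CPM in BCAS. The part of these cell types in the rise of the 10 genes was not tested.

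Set against the summed microglia and macrophage markers of the same library, 9 of the 10 genes were lower in BCAS. The log2 difference was -2.49 for Rela, -2.44 for Nfkbia and -2.20 for Rel, and it was smallest for Nfkb2 at -1.11. For Bcl3 the difference was 0.26, with overlapping groups. The sum itself was higher by 3.43 on the log2 scale, so these values follow from the fold changes above.

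The genes whose levels ran most like those of each member over the 8 libraries were sought among the 12438 tested genes averaging at least 100 counts, by the root-mean-square difference of centred log2 CPM. Nfkb1 ran closest with Sbno2 (0.061) and Aldh1l2 (0.064), Rela with Triobp (0.057) and Snx33 (0.066), and Nfkbiz with Tbx18 (0.064) and Rftn1 (0.091). Nfkb2 had S100a11 (0.1) and Apoe (0.106), Relb had Tifa (0.097) and Cd93 (0.1), Rel had Atp7a (0.098) and Tnfaip8 (0.102), and Nfkbia had Vat1 (0.1) and Foxc1 (0.113). The matches were looser for Tnfaip3 with Tspan4 (0.141) and Rhoc (0.156), Nfkbie with Adam12 (0.171) and Irf1 (0.193), and Bcl3 with Hpse (0.213) and Oas2 (0.259). Among the members Rel and Nfkbiz were the closest pair (0.174), and Rela and Bcl3 the farthest apart (1.39). All these genes differ between the same 2 groups of 4 libraries, which fixes much of such a likeness.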

How the data were processed

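Per the labels and the study's methods, the authors cleaned the read pairs with Trim Galore and mapped these to mm10 with HISAT2 and SAMtools 1.9. The raw counts per gene that the authors deposited come from featureCounts. The file headers name featureCounts 2.0.1 with GENCODE release M20 and no strand option, whereas the labels name version 1.6.3. Symbols were matched by gene ID from GENCODE M21 (54723 of 54752 IDs).

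Counts were tested with edgeR 4.0.16 in R 4.3.3 (TMM, filterByExpr with a minimum count of 10 and a minimum total of 15, quasi-likelihood F-test, no covariates), adjusted over 17136 genes by Benjamini-Hochberg. Thresholds were those of the study (0.05, and a log2 fold change of 1). The study itself used limma and also showed results from DESeq2, and both tools were run here as alternatives. RPKM used the exon length in the tables. Ratios used a prior count of 0.5. The scripts were tested on simulated data. The limit that a count of 0 allows (3 counts) covers counting error only. The numbers in the labels name separate mice.

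The members, lists and tests were chosen with earlier results of these data known. Of each pathway list the text names the 2 largest changes that passed (mean of at least 10 counts) and the largest adjusted p (mean of at least 100 counts), and of each member the 2 most similar genes. A gene named by this rule is not reported here. Alternatives were 3 other normalizations, 2 filters, limma on log2(CPM + 1), limma-voom, DESeq2 1.42.0, a replicate block and leaving out each mouse. Sequences are from RefSeq. No protein sequences were used here. Figures were drawn with matplotlib 3.10.9.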

Additional observations from a re-analysis of the deposited data

Results flagged for a closer look

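Among 88 groups of 4 values checked, 6 held a value far from the other 3, by a gap to the nearest of the others that took up more of the group's range than Dixon's critical value allows. Chance alone marks about 1 in 20 groups. Members are concerned in 3 of the 6. The log2 ratio of Nfkb2 to Nfkb1 in BCAS mouse 2 was -2.04 beside -1.50 to -1.40 in the other BCAS mice, a gap of 0.849 of the range. In Sham mouse 3 the log2 ratio of Rel to Rela was -1.13 beside -1.86 to -1.74 in the other Sham mice (0.84 of the range), and the share of Rel in the summed subunit RPKM was 10.2% beside 6.68% to 6.93% (0.93 of the range). Both of the last values rest on the same 194 counts of Rel in that library, which also held 12169 counts of Ttr, a choroid plexus marker, beside 128 to 548 in the other Sham libraries. The part of that tissue in the values of Rel was not tested. Without Sham mouse 3 the log2 ratio of Rel to Rela was higher in BCAS by 0.46.

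The remaining 3 were single genes of the pathway lists in Sham libraries, each on the log2 CPM scale. Sham mouse 4 was high for Birc2 with 637 counts (0.875 of the range), Sham mouse 3 was low for Tnip1 with 368 counts (0.913), and Sham mouse 3 was high for Lcn2 with 12 counts beside 2 or 3 in the others (0.84).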

How the results depend on the processing

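Of the 10 members 8 to 10 passed and 7 to 10 were past both thresholds over 17 alternatives, all with higher values in BCAS. Nfkb1, Nfkb2, Rela, Relb, Rel, Nfkbiz and Tnfaip3 passed in all 17, and Bcl3 in the 16 that could test it, since a filter of at least 10 counts in every library removed it. Nfkbia was lost without Sham mouse 1, and Nfkbie in the 6 cases of which 5 are named with its values, the sixth being the replicate block (adjusted p = 0.0556). Over all genes the higher calls ran from 2131 to 4491 when 1 mouse was left out, the lower calls from 418 to 3675, and the lower calls were 1294 with library size alone and 1127 with the replicate block. The lower calls of the pathway lists numbered 0 with library size alone and with the block, 1 without a filter and 0 to 3 with 1 mouse left out. Library size alone turned the sign of Nfkbil1 (0.052) and Bcl2l1 (0.0062). Leaving out 1 mouse gave values on both sides of 0 for Nfkbil1 (-0.1664 to 0.0428), Map3k7 (-0.0063 to 0.0601), Tnip1 (-0.0732 to 0.1204) and the ratio of Nfkbia to Rela (-0.129 to 0.183), all of which had failed the test. The cause was not tested.

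Same-numbered libraries did not deviate together (correlations of -0.045, -0.103, -0.008 and 0.001), so the numbers do not pair the mice. With the replicate block 9 of 10 members passed and 7 were past both thresholds, and the ratios could not go below an exact p of 0.125.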

Other observations

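Several textbook targets and ligands of the pathway were too low for the test and are given as counts alone, chosen after their values were seen. Tnf, a cytokine that activates the pathway, had 2, 0, 3 and 3 counts in Sham mice 1 to 4 and 142, 5, 44 and 26 counts in BCAS mice 1 to 4. Saa3, an acute phase gene, was at 0 in the 4 Sham libraries and at 167, 2, 254 and 67 counts in BCAS mice 1 to 4, and Cxcl1, a chemokine for neutrophils, went from 0, 1, 5 and 2 to 91, 2, 80 and 23 counts. In BCAS mouse 2 the counts of Saa3 and Cxcl1 were in or next to the Sham range. Il6 had at most 2 counts in any Sham library and 9, 2, 1 and 4 counts in the BCAS libraries, which is too few to compare at this depth.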
